A study of Mus musculus with 2 samples.

Results

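The expression of 10 genes of the Wnt pathway was described across the cell classes of the mouse pituitary: the ligand gene Wnt10a, the secreted antagonist genes Sfrp1 and Sfrp5, the receptor genes Fzd5 and Lgr4, the nuclear factor genes Tcf7l1, Tcf7l2 and Lef1, the transducer gene Ctnnb1 and the feedback gene Axin2. They were found by their symbols in the gene list of the deposited matrix, and all 10 of the 10 were among its 28693 genes. The cells came from pituitary glands of male C57BL/6 mice aged 7 weeks, dispersed by an enzyme digestion of 4 h and profiled by droplet sequencing from the 3′ end of transcripts. Each of the 2 libraries pooled 3 glands, so single animals cannot be told apart, and both libraries belong to the same group. The comparisons are therefore between cell classes of the same glands, and no genotype, treatment or age was compared.

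Wnt proteins are secreted signals that bind Frizzled receptors together with the co-receptors Lrp5 and Lrp6. In the canonical branch, binding stops the destruction complex from degrading beta-catenin, the product of Ctnnb1, which then enters the nucleus and binds DNA through the TCF/LEF proteins Tcf7, Tcf7l1, Tcf7l2 and Lef1. Without beta-catenin these proteins act as repressors with Groucho-type co-repressors of the Tle family. Secreted frizzled-related proteins bind Wnt ligands outside the cell, and R-spondins act through Lgr receptors to keep Frizzled proteins at the surface. In the pituitary, Wnt signals are known for their part in the growth of the gland and in the regulation of its stem cells.

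The libraries held 6546 and 7117 barcodes with a median of 10128 and 10636 unique molecular identifiers (UMIs, each counting 1 captured transcript), and 54 barcode sequences occurred in both. After quality and doublet filters, 6011 and 6523 cells were clustered on 92 marker genes, none of them a Wnt gene, and 11 classes were named from at least 3 detected markers each. The classes ran from 2905 and 2922 somatotrope-like cells, the growth hormone class, to 20 and 33 cells like pituicytes, which are posterior lobe glia. Lactotrope-like (prolactin), gonadotrope-like, corticotrope-like and melanotrope-like cells made up the other hormone classes. The remaining classes were 186 and 180 stem-like cells, cycling cells, and endothelial-like, fibroblast-like and macrophage-like cells. A further 492 and 489 cells stayed unnamed, 365 of them in a cluster led by the thyrotrope genes Tshb and Dio2 in which 83.6% of cells also had over 30% of their UMIs from Gh, the growth hormone gene. Class levels are in CPM, the UMI count of a gene scaled to a common library size. Before this scaling, the UMI total of each class and library was multiplied by its own TMM factor from edgeR. The factors ran from 0.539 in somatotrope-like cells to 1.64 in pituicyte-like cells, both in library 1. A factor below 1 raises the CPM of a class and a factor above 1 lowers it. SD is over the 2 libraries (n = 2). Classes were compared in edgeR by its quasi-likelihood test, with p-values adjusted by Benjamini and Hochberg's method over 12459 genes and a threshold of 0.05, and log2 differences carry their standard error (SE). Where several classes form 1 side, the fit averages their log2 levels, so a log2 difference need not match the ratio of the mean CPM beside it. The p-values rest on how far 2 pools disagree, not on the spread between animals.

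For 3 members that were higher in stem-like cells than in the hormone classes, the 250 bases before the annotated gene start are shown. Sites bound by TCF/LEF proteins include CTTTGAT and CTTTGAA, and no other full spelling was searched. The sequences are from RefSeq, build GRCm38.p6, written 5′ to 3′ on the strand of the gene. They are chr19:42202253-42202502 (minus strand) for the antagonist gene Sfrp5, chr2:109917397-109917646 (plus strand) for the receptor gene Lgr4 and chr19:55741560-55741809 (plus strand) for the nuclear factor gene Tcf7l2. Capitals mark the shared core of both sites, CTTTG, or its reverse complement CAAAG.
Sfrp5: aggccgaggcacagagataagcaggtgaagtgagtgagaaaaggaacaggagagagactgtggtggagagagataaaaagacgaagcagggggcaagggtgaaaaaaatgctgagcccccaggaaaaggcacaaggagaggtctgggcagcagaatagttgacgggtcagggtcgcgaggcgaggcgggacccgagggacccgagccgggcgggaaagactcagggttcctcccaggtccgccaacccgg
Lgr4: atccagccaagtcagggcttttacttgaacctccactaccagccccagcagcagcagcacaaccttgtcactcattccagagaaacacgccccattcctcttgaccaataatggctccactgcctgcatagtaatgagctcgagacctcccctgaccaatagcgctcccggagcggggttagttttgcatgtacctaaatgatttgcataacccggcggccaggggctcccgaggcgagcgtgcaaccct
Tcf7l2: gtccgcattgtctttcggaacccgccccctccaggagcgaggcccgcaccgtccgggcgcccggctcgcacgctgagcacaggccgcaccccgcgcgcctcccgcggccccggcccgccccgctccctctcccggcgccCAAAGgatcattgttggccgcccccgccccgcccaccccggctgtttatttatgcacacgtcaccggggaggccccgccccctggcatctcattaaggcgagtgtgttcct

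Windows were available for 8 of the 10 members, all except Wnt10a and Sfrp1. None of these windows, which reach from 250 bases before to 50 bases after a start, held CTTTGAT or CTTTGAA on either strand, against 8.65% of all 32851 windows. The core alone, searched after this result was seen, lay 28 bases before the start of Tcf7l1. Tcf7l2 has 2 windows, with a core 111 bases before the start whose sequence is printed and 14 bases before the other. A core was also found in windows of Lef1, and none was found in those of Sfrp5, Fzd5, Lgr4, Axin2 and Ctnnb1. Since 53.9% of all windows held the core, these matches describe the letters of the windows only.

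The ligand gene Wnt10a (chromosome 1, 74791516 to 74804179, mm10, plus strand) was highest in somatotrope-like cells. There it was at 57.4 CPM in library 1 and 66.9 CPM in library 2, from 1148 and 1429 UMIs. Cycling cells came next, with 24.8 and 28.5 CPM from 30 and 37 UMIs. Both libraries of the somatotrope-like class lay above every other class, and both of the cycling class lay above the remaining 9, whose highest single value was 11.8 CPM. Those 9 classes had means from 1.75 to 7.23 CPM, and the macrophage-like mean at the top came from 4 and 1 UMIs, so most neighbours in that order did not differ beyond their spread. Free RNA in the droplets was estimated from Gh in the median endothelial-like cell at 2.78% and 2.21% of UMIs. This would give 0.594 and 0.522 CPM of Wnt10a before TMM scaling. Summed over the class, Gh was 12.2% and 7.28% of endothelial-like UMIs and 20.6% and 11.3% of macrophage-like UMIs. The estimate can therefore be too low for class sums. How much of the low Wnt10a levels came with Gh was not tested.

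Against the mean of the other hormone classes, Wnt10a was 4.09 ± 0.20 (SE) higher in somatotrope-like cells on the log2 scale (adjusted p = 6.97e-54, edgeR), from a mean of 62.2 CPM against 4.20 CPM. Lactotrope-like cells had 2.70 and 2.31 CPM and gonadotrope-like cells 1.78 and 1.87 CPM of Wnt10a. Both of these classes were below the mean of the other hormone classes, by a log2 difference of -1.70 ± 0.27 (adjusted p = 1.86e-07, edgeR) and -2.24 ± 0.47 (adjusted p = 7.85e-07, edgeR). The ligand transcript was thus measured mainly in 1 of the 5 hormone classes, as the panels by class show.

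**Figure D1:**
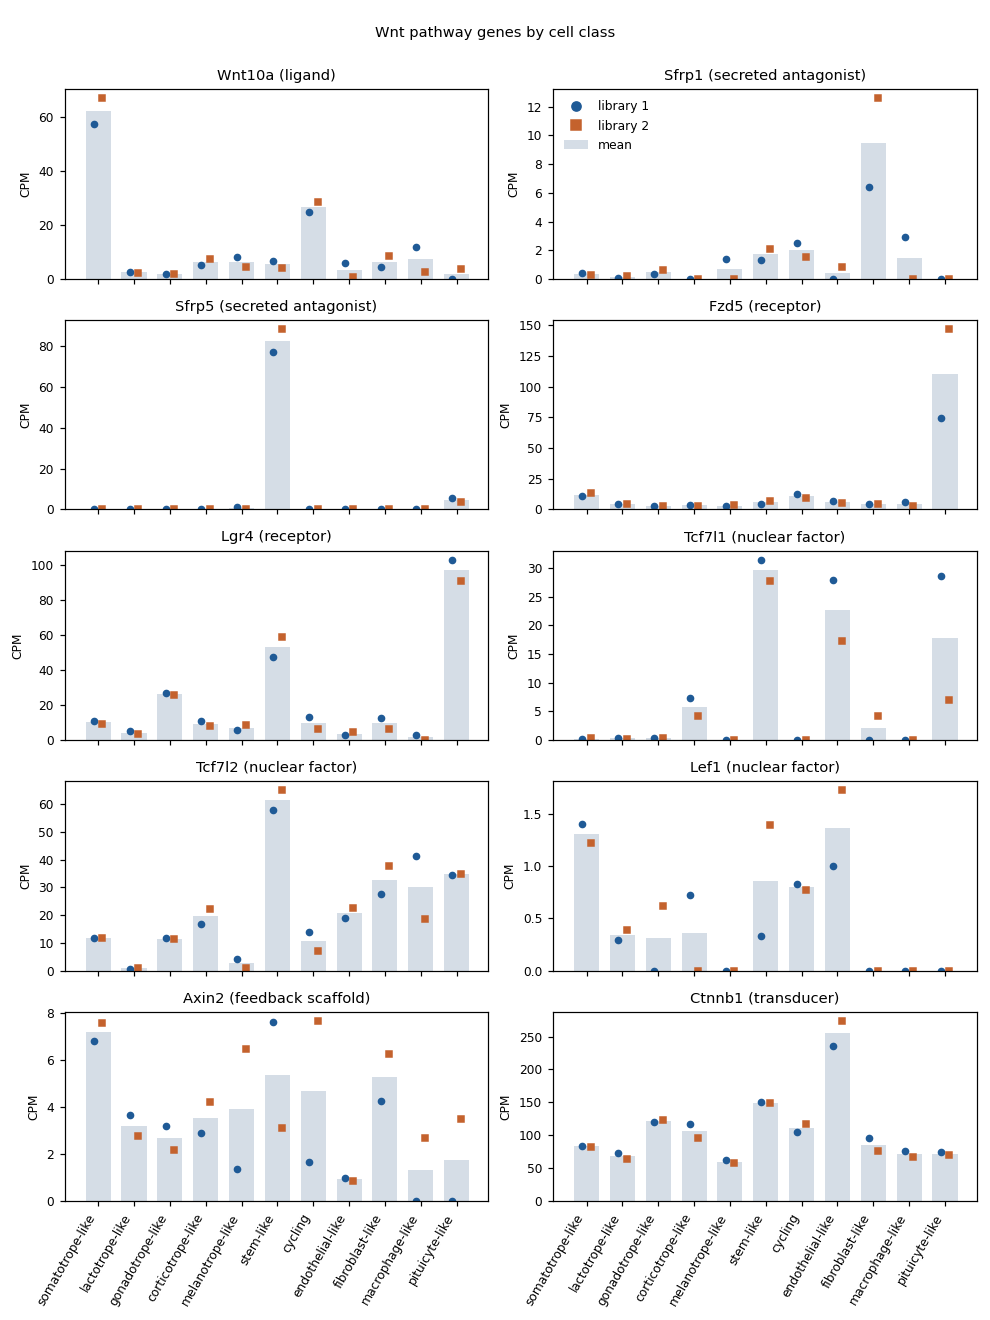
Level of each of the 10 Wnt pathway genes in CPM (vertical axes, each from 0, on different scales) in the 11 cell classes (horizontal axis), with library 1 as circles, library 2 as squares and bars at their mean. Wnt10a stands out in somatotrope-like cells, Sfrp5 in stem-like cells, Fzd5 and Lgr4 in pituicyte-like cells and Ctnnb1 in endothelial-like cells.

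Single cells were also counted, after thinning each cell to 2000 UMIs outside 7 hormone genes so that the large hormone share of some classes did not set the depth. At this depth 13.4% (95% exact binomial interval 12.2 to 14.8) and 15.6% (14.3 to 17.0) of somatotrope-like cells had a UMI of Wnt10a. The intervals cover counting error only. In macrophage-like cells, taken as a class that should lack the gene, the shares were 0% of 61 cells, which allows up to 4.92%, and 1.12%. Before thinning, the median depth outside the hormone genes was 4888 and 5165 UMIs in somatotrope-like and 4466.5 and 4054 in macrophage-like cells, and the shares for Wnt10a were 27.4% and 32.1% against 3.12% and 1.12%. The share of somatotrope-like cells with a UMI was above the background share in both libraries. It was a minority of cells at either depth, but it rose with depth. A cell without a UMI can still hold the transcript, so the share of cells that express Wnt10a was not measured.

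Within the somatotrope-like class, UMIs of Wnt10a were counted in both libraries of all 10 clusters. One of them, 332 cells led by the immunoglobulin gene Igkc and by replication genes such as Gins2 and Mcm6, had all 7 somatotrope markers but none among its 10 leading genes. At a coarser clustering its counterpart of 425 cells stayed unnamed. It had 76.9 and 116 CPM of Wnt10a when totals were taken outside the hormone genes. The highest by the mean of both libraries, 360 cells led by Gh and Arhgap36, had 102 and 114 CPM on this scale. The lowest, 315 cells led by the stress genes Ddit3 and Dnaja4, had 38.6 and 82.2 on the same scale. The unnamed cluster led by Tshb and Dio2 had 54.9 and 74.7 on that scale. At a finer clustering, 11 and 36 cells formed a thyrotrope-like class, with 0 and 2 UMIs of Wnt10a. Which of the clusters above held these cells was not traced. Clusters are described without a test.

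**Figure D2:**
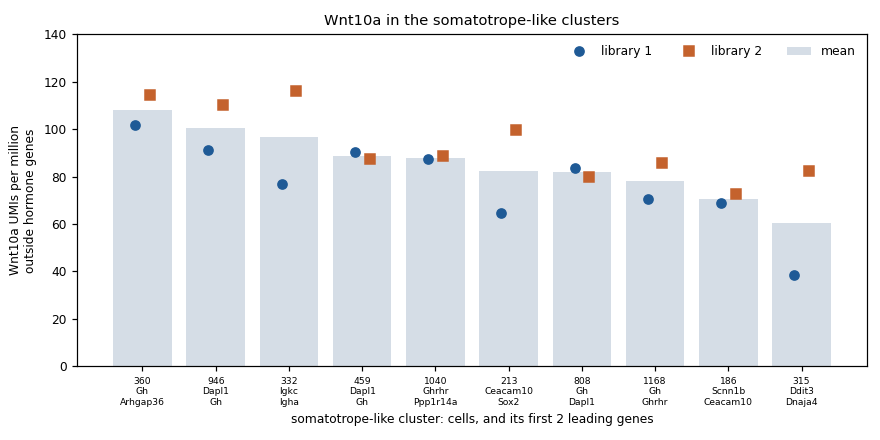
Wnt10a in CPM with totals taken outside the hormone genes (vertical axis, from 0) in the 10 somatotrope-like clusters, named by their number of cells and first 2 leading genes, with library 1 as circles, library 2 as squares and bars at their mean. Values run from 38.6 in library 1 of the cluster led by Ddit3 and Dnaja4 to 116 in library 2 of the cluster led by Igkc and Igha.

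Sfrp5 (chromosome 19, 42197971 to 42202252, minus strand), one of the genes whose promoter is printed above, encodes a secreted antagonist that binds Wnt proteins. It was at 76.9 and 88.4 CPM in stem-like cells, from 232 and 254 UMIs. No UMI was counted in either library in 6 classes: gonadotrope-like, corticotrope-like, cycling, endothelial-like, fibroblast-like and macrophage-like cells. Pituicyte-like cells held 1 UMI per library, melanotrope-like cells 1 UMI in library 1, lactotrope-like cells 4 and 5, and somatotrope-like cells 6 and 4. The stem-like values lay far above all others without overlap. After thinning, 19.6% and 18.3% of stem-like cells had a UMI of Sfrp5, against 0% of macrophage-like cells in both libraries, which allows up to 4.92% and 3.37%.

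Sfrp1 (chromosome 8, 23411502 to 23449632, plus strand), which encodes a related antagonist, was low everywhere. Its highest level was 6.39 and 12.6 CPM in fibroblast-like cells, from only 3 and 6 UMIs. Stem-like cells had 1.33 and 2.09 CPM from 4 and 6 UMIs, and corticotrope-like and pituicyte-like cells had none. Sfrp1 was below the expression filter and entered no main test. In a fit without the filter, over 19975 genes, it was called higher in fibroblast-like cells than in all other classes (adjusted p = 0.000172, edgeR) and in stem-like cells than in the hormone classes (adjusted p = 0.0107, edgeR). Both contrasts include classes at 0 UMIs, so no fold is given.

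The antagonist genes of the wider list that are named here were highest in stem-like, fibroblast-like or pituicyte-like cells. Dkk3 encodes a Dickkopf-family protein and is counted as an antagonist by its place in that list, which was not tested. It was at 27.2 CPM in stem-like cells in both libraries and at most 11.4 in any other library of a class. Sfrp4 was at 91.6 and 122 CPM in fibroblast-like cells. Sfrp2 was at 57.2 and 59.5 CPM in pituicyte-like cells, from 10 and 17 UMIs, and at 23.4 and 14.7 CPM in fibroblast-like cells. Sostdc1, which encodes another secreted antagonist, was also highest in pituicyte-like cells, at 17.2 and 52.5 CPM from 3 and 15 UMIs. Dkk3 and Sfrp5 thus shared their highest class, as did Sfrp1 and Sfrp4, and Sfrp2 and Sostdc1.

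The receptor gene Fzd5 (chromosome 1, 64730558 to 64737751, minus strand), which encodes a Frizzled, was highest in pituicyte-like cells. It was at 74.3 CPM in library 1 and 147 CPM in library 2 there, from 13 and 42 UMIs in 20 and 33 cells. Somatotrope-like cells had 11.0 and 13.2 CPM and cycling cells 12.4 and 9.23 CPM. The 2 pituicyte-like values were far apart (SD 51.4) but both lay above every other class, while somatotrope-like and cycling cells overlapped each other. Among the hormone classes, Fzd5 was 1.86 ± 0.25 higher in somatotrope-like cells on the log2 scale (adjusted p = 3.33e-14, edgeR). The share of pituicyte-like cells with a UMI of Fzd5 after thinning was 20% and 36.4%, with intervals of 5.73 to 43.7 and 20.4 to 54.9, against 0% of macrophage-like cells in both libraries.

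Lgr4 (chromosome 2, 109917647 to 110014257, plus strand) encodes a receptor for R-spondins. It was at 103 and 91.0 CPM in pituicyte-like cells, 47.1 and 58.5 CPM in stem-like cells and 26.7 and 25.6 CPM in gonadotrope-like cells. These 3 classes stood apart from each other and from the rest in both libraries. The other 8 classes had means from 1.47 CPM in macrophage-like cells to 10.0 CPM in somatotrope-like cells, with overlapping libraries among their upper members. Lgr4 was 1.84 ± 0.20 higher in gonadotrope-like cells than in the other hormone classes (adjusted p = 3.66e-15, edgeR) and lower in lactotrope-like cells, at 5.31 and 3.23 CPM, with a log2 difference of -1.46 ± 0.22 (adjusted p = 2.70e-08, edgeR). After thinning, 12.5% and 12.8% of stem-like and 9.41% and 6.74% of gonadotrope-like cells had a UMI of Lgr4.

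Tcf7l1 (chromosome 6, 72626378 to 72789254, minus strand) encodes a TCF protein known mainly as a repressor. It was at 31.5 and 27.9 CPM in stem-like cells, 28.0 and 17.3 CPM in endothelial-like cells and 28.6 and 7.00 CPM in pituicyte-like cells, the last from 5 and 2 UMIs. These 3 classes overlapped, and the lower pituicyte-like value overlapped the corticotrope-like class. Corticotrope-like cells followed with 7.26 and 4.22 CPM from 10 and 7 UMIs. Melanotrope-like, cycling and macrophage-like cells had no UMI of Tcf7l1, and gonadotrope-like, lactotrope-like and somatotrope-like cells were at or under 0.386 CPM. Corticotrope-like cells were thus the only hormone class measured above 1 CPM, 5.74 against a mean of 0.204 CPM in the others (adjusted p = 4.48e-08, edgeR). That contrast includes a class at 0 UMIs. In melanotrope-like cells 3 UMIs would be 4.15 and 3.23 CPM, so a level above 1 CPM could be missed there.

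Tcf7l2 (chromosome 19, 55741820 to 55933654, plus strand) encodes a TCF protein that activates or represses with its partners. It was at 58.0 and 65.1 CPM in stem-like cells, above every other class in both libraries. Pituicyte-like and fibroblast-like cells followed with means of 34.7 and 32.7 CPM, and macrophage-like cells, at 41.3 and 18.7 CPM, overlapped both. Lactotrope-like cells were lowest, at 0.676 and 1 CPM from 7 and 13 UMIs, below every other class in both libraries. Corticotrope-like cells had 16.7 and 22.3 CPM, the highest of the hormone classes, and somatotrope-like cells 11.7 and 11.6 CPM. Lactotrope-like cells were lower than the other hormone classes, with a log2 difference of -3.34 ± 0.39 (adjusted p = 4.56e-10, edgeR), and corticotrope-like cells were 2.26 ± 0.29 higher (adjusted p = 3.45e-11, edgeR). The share of cells with a UMI of Tcf7l2 after thinning was 22.3% and 20.6% in stem-like cells and 0.141% and 0.115% in lactotrope-like cells.

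The third nuclear factor gene, Lef1 (chromosome 3, 131110471 to 131224356, plus strand), was barely detected. Its highest mean was 1.37 CPM in endothelial-like cells, from 1 and 2 UMIs, and somatotrope-like cells had 1.40 and 1.22 CPM from 28 and 26 UMIs. Melanotrope-like, fibroblast-like, macrophage-like and pituicyte-like cells had none. Lef1 was below the filter, and without it Lef1 was called higher in somatotrope-like cells than in the other hormone classes (adjusted p = 0.00456, edgeR), a contrast with a class at 0 UMIs.

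Ctnnb1 (chromosome 9, 120929216 to 120960507, plus strand), which encodes beta-catenin, was measured in every class. Beta-catenin also links cadherins to the cytoskeleton at cell junctions, so its transcript is not specific to the Wnt pathway. Ctnnb1 was at 235 and 274 CPM in endothelial-like cells and 150 and 149 CPM in stem-like cells. Gonadotrope-like cells had 120 and 123 CPM, and melanotrope-like cells were lowest with 62.2 and 57.1 CPM. The first 3 classes stood apart in this order in both libraries, and from cycling cells downward 4 of the 7 neighbouring pairs of classes overlapped.

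Axin2 (chromosome 11, 108920349 to 108950783, plus strand) encodes a scaffold of the destruction complex and is a widely used target gene of canonical signalling. It was at 6.80 and 7.59 CPM in somatotrope-like cells, from 136 and 162 UMIs. Stem-like cells had 7.63 and 3.13 CPM and fibroblast-like cells 4.26 and 6.29 CPM, and endothelial-like cells were lowest with 1 and 0.865 CPM from 1 UMI per library. The somatotrope-like values did not stand apart from those of stem-like or cycling cells. Axin2 was below the filter, and without it Axin2 was 1.15 higher in somatotrope-like cells than in the other hormone classes on the log2 scale (adjusted p = 2.88e-06, edgeR). Without the filter it was also 2.54 higher in stem-like than in endothelial-like cells (adjusted p = 0.0142, edgeR), while stem-like cells against the hormone classes did not pass the test (log2 difference of 0.48, adjusted p = 0.306, edgeR).

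In stem-like cells against the equally weighted mean of the 5 hormone classes, 5 of the 7 members that passed the expression filter were higher and 0 were lower. Sfrp1, Lef1 and Axin2 are not among the 7. Sfrp5 passed the filter only through the stem-like class, where it is high, so its call follows from the filter and the count is not read as support. Over all genes tested, 31.7% were higher and 25.6% lower in this comparison. Tcf7l2 was 3.45 ± 0.20 higher on the log2 scale (adjusted p = 6.35e-43, edgeR). Its mean CPM was 61.6 against 9.21, a ratio of 6.68. Lgr4 was 2.48 ± 0.16 higher (adjusted p = 9.48e-32, edgeR), from 52.8 CPM against 11.4 CPM, and Ctnnb1 0.82 ± 0.08 higher (adjusted p = 2.09e-16, edgeR). Tcf7l1 (29.7 against 1.31 CPM, adjusted p = 1.66e-35, edgeR) was higher in a contrast that includes a class at 0 UMIs, and Sfrp5 was at 82.7 against 0.264 CPM. Fzd5 did not pass the test, with a log2 difference of 0.43 ± 0.33.

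Wnt10a did not pass the test in stem-like cells either, with 6.63 and 4.18 CPM and a log2 difference of -0.23 ± 0.31 (adjusted p = 0.54, edgeR). The fit averages the log2 levels of the hormone classes, and the 1 high somatotrope-like class moves that average less than it moves the mean CPM of 15.8. Of the stem-like cells, 8.60% and 6.11% had over 30% of their UMIs from Gh. With such cells removed from every class except the somatotrope-like, Wnt10a was lower in stem-like cells than in the hormone classes, with a log2 difference of -2.42 (adjusted p = 6.36e-06, edgeR).

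A wider list of 87 other Wnt genes was described in the same comparison, and 53 of them were tested. Of these, 35 were higher in stem-like cells and 2 were lower, Btrc and Tle2, against 31.7% higher and 25.6% lower over all genes tested. Their median log2 difference was 1.53, or 1.22 with classes at 0 UMIs set to their counting floor of 3 UMIs, against a median of 0.05 over all genes tested. By role, 15 of 17 genes for receptors and their partners were higher, 5 of 7 ligand-related genes and 3 of 4 secreted antagonists. In the destruction complex 6 of 10 were higher and 1 lower. Among nuclear factors 4 of 11 were higher and 1 lower, and 2 of 4 target genes were higher. The filter also admits genes that are high in the stem-like class alone, so these counts and the median are not read as support.

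**Figure D3:**
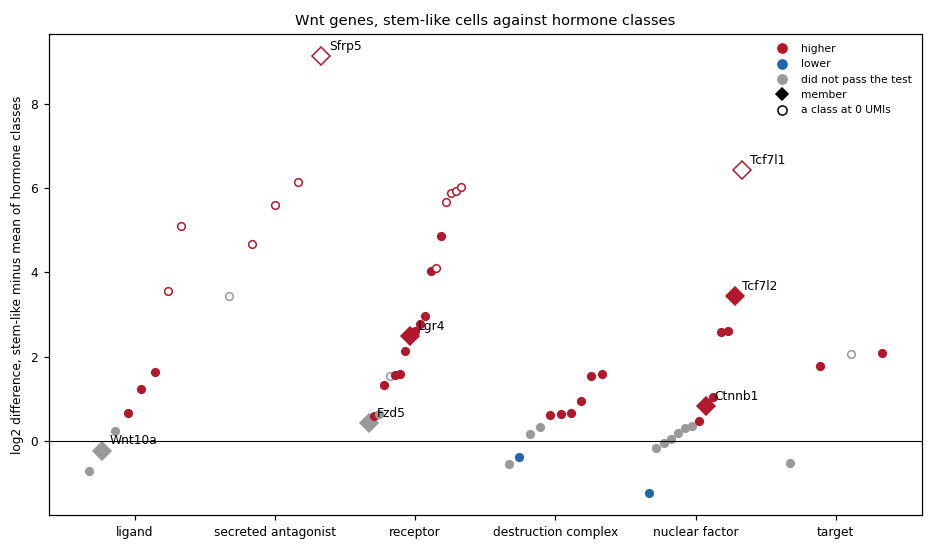
Log2 difference between stem-like cells and the mean of the 5 hormone classes (vertical axis) for the 60 tested Wnt genes by role (horizontal axis), with members as labelled diamonds, other genes as circles, red for higher, blue for lower and grey for no call. Open symbols are genes with a class at 0 UMIs, whose fitted difference depends on the model and is not a measured fold. Lgr4, Tcf7l2 and Ctnnb1 are filled red diamonds, and Wnt10a and Fzd5 are grey.

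The receptors of the wider list that were highest over the hormone classes included Fzd4, at 52.7 and 55.7 CPM in stem-like cells and a log2 difference of 4.86 ± 0.28 (adjusted p = 3.61e-50, edgeR). Fzd1 (48.1 against 1.67 CPM), Fzd7 (36.3 against 1.52 CPM) and the R-spondin receptor gene Lgr6 (27.8 against 0.645 CPM) were also higher. The co-receptor gene Lrp5 was 4.04 ± 0.37 higher and Fzd3 2.13 ± 0.14 higher. Lgr4 was thus 1 of several receptor genes higher in this class, which Fzd5 was not. Wls, which encodes the carrier that brings Wnt proteins to the cell surface, was at 110 and 96.8 CPM in stem-like cells, against a mean of 34.1 CPM in the hormone classes.

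Inside the cell, Apc, a scaffold of the destruction complex, was 1.58 ± 0.14 higher in stem-like cells than in the hormone classes (adjusted p = 5.42e-20, edgeR). The kinase genes Csnk1a1 and Gsk3a were 0.67 ± 0.08 and 0.60 ± 0.15 higher, and Btrc, a subunit of the ubiquitin ligase that marks beta-catenin, had a log2 difference of -0.39 ± 0.17. Among co-repressor genes, Tle3 was 2.57 ± 0.23 higher and Tle4 0.47 ± 0.15 higher. The cyclin gene Ccnd1, a target that many other signals also drive, was 1.78 ± 0.09 higher (adjusted p = 2.47e-41, edgeR).

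The members that passed the test differed from 1 hormone class to the next. In somatotrope-like cells, 3 of 7 passed the test, all higher: Wnt10a and Fzd5, as given above, and Tcf7l2 with 1.31 ± 0.24 (adjusted p = 3.59e-09, edgeR). The mean of Tcf7l2 was 11.6 CPM there against 8.61 CPM over the other hormone classes, and corticotrope-like cells were higher, at 19.5 CPM. The low lactotrope-like and melanotrope-like levels, 0.838 and 2.61 CPM, lower the average of log2 levels more than the mean CPM. Over all genes, 45.5% passed in either direction, so the count of members is near the background and the sizes carry the description. In lactotrope-like cells 4 of 7 passed, all lower, against 41.2% of all genes. They were Wnt10a, Lgr4, Tcf7l2 and Ctnnb1, the last with -0.39 ± 0.08 (adjusted p = 4.69e-05, edgeR). Axin2, at 3.67 and 2.77 CPM in lactotrope-like cells, did not pass in the fit without the filter (log2 difference of -0.35, adjusted p = 0.503, edgeR).

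In gonadotrope-like cells 4 of 7 members passed the test against 35.5% of all genes. Lgr4, Tcf7l2 (1.28 ± 0.28) and Ctnnb1 (0.65 ± 0.09) were higher and Wnt10a was lower. For Tcf7l2 the means were 11.5 CPM against 8.65 CPM over the other hormone classes. The Tcf7l2 call was lost when cells were clustered on variable genes (log2 difference of 0.49, adjusted p = 0.103, edgeR). In corticotrope-like cells 3 of 7 were higher, Tcf7l1, Tcf7l2 and Ctnnb1 (0.41 ± 0.10), against 29.8% of all genes in either direction. The corticotrope-like cluster was led in part by the immediate early genes Npas4, Egr4 and Junb, whose part in these values was not tested. In melanotrope-like cells only Ctnnb1 passed, against 18.5% of all genes, with a log2 difference of -0.64 ± 0.15 (adjusted p = 0.000253, edgeR). That call was lost when cells were clustered on variable genes (log2 difference of -0.15, adjusted p = 0.335, edgeR).

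The other ligand genes of the wider list differed between the hormone classes too. Wnt5b was at 20.7 and 23.7 CPM in melanotrope-like cells, 5.30 ± 0.57 above the other hormone classes on the log2 scale (adjusted p = 8.92e-17, edgeR). Wnt4 was highest in corticotrope-like cells, at 14.5 and 19.9 CPM, and Rspo3, an R-spondin gene, had 13.1 and 15.7 CPM there. In lactotrope-like cells the co-repressor gene Tle4 was 1.43 ± 0.12 higher (adjusted p = 5.03e-22, edgeR) and Ctnnbip1, which encodes an inhibitor of beta-catenin binding to TCF proteins, 1.07 ± 0.11 higher (adjusted p = 5.55e-17, edgeR). Ccnd1 was lower in gonadotrope-like cells, with a log2 difference of -2.31 ± 0.16 (adjusted p = 2.37e-30, edgeR).

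In cycling cells, 4 of 7 members were higher than in the hormone classes, against 36.5% of all genes in either direction. They were Wnt10a with 2.05 ± 0.24 (adjusted p = 1.06e-11, edgeR), Fzd5 with 1.32 ± 0.35 (adjusted p = 0.00256, edgeR), Tcf7l2 with 0.88 ± 0.34 (adjusted p = 0.0407, edgeR) and Ctnnb1 with 0.39 ± 0.11 (adjusted p = 0.00174, edgeR). The mean of Tcf7l2 was 10.5 CPM in cycling cells against 9.21 CPM over the hormone classes. Its corticotrope-like mean was higher, at 19.5 CPM, and its somatotrope-like and gonadotrope-like libraries overlapped those of cycling cells. Of the cycling cells, 71.8% and 77.4% had over 30% of their UMIs from Gh. Without them, 31 and 26 cycling cells remained, and none of the 4 members passed the test: Wnt10a had a log2 difference of -0.50 (adjusted p = 0.744, edgeR), Fzd5 of 1.21 (adjusted p = 0.208, edgeR), Tcf7l2 of 0.36 (adjusted p = 0.791, edgeR) and Ctnnb1 of 0.27 (adjusted p = 0.303, edgeR). Without the Gh-rich cells the 4 calls were thus lost, but of these members only Wnt10a changed sign. What the smaller number of cells did to the calls was not tested.

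Pituicyte-like cells, compared with the mean of all other classes, had 5 of 7 members higher, against 16.2% of all genes in either direction. The median of all genes tested was itself at -0.23 in this comparison. Fzd5 was 4.53 ± 0.27 higher (adjusted p = 6.86e-25, edgeR) and Lgr4 3.51 ± 0.30 higher (adjusted p = 1.15e-16, edgeR). Tcf7l2 was 1.5 ± 0.39 higher (adjusted p = 0.00872, edgeR), and Tcf7l1 (adjusted p = 0.000285, edgeR) and Sfrp5 (adjusted p = 0.0336, edgeR) were called in contrasts with classes at 0 UMIs. The Sfrp5 call rests on 1 UMI per library, and its mean of 4.61 CPM was below the mean of 8.40 CPM over the other classes, which holds the stem-like value. It was lost with the doublet calls kept (adjusted p = 0.0945, edgeR). Without library 1 the log2 difference of Fzd5 was 4.88, and without library 2 it was 3.84.

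The wider list in pituicyte-like cells had 16 of 53 genes higher and 3 lower, against 16.2% of all genes in either direction. The filter also admits genes that are high in the pituicyte-like class alone, so these counts are not read as support. Among receptor genes, Fzd1 was at 103 and 101 CPM, the co-receptor gene Lrp5 at 74.3 and 87.5 CPM, and Lgr6 at 28.6 and 31.5 CPM. Wnt5a, a ligand of the non-canonical branch, was at 22.9 and 42.0 CPM from 4 and 12 UMIs, and fibroblast-like cells had 25.6 and 39.8 CPM of it. In pituicyte-like cells the co-repressor gene Tle2 was 2.91 ± 0.34 above the mean log2 level of all other classes (adjusted p = 6.53e-09, edgeR). Set directly against pituicyte-like cells, stem-like cells had 4 of the 17 receptor genes of the wider list higher and 4 lower. Over all genes, 18.5% passed in either direction there. Fzd3 (47.9 against 6.36 CPM) and Fzd4 (54.2 against 19.1 CPM) were among the higher, and Fzd1 (48.1 against 102 CPM) and Lrp5 (21.4 against 80.9 CPM) among the lower.

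Endothelial-like cells had 3 of 7 members higher and 1 lower than the mean of all other classes, against 44.8% of all genes in either direction. Ctnnb1 was 1.52 ± 0.09 higher (adjusted p = 3.97e-32, edgeR) and Tcf7l1 was higher at 22.7 against 5.61 CPM (adjusted p = 7.27e-17, edgeR). Lgr4 was lower, at 3.00 and 4.32 CPM, with a log2 difference of -1.65 ± 0.56 (adjusted p = 0.00475, edgeR). Tcf7l2 was called higher with 0.70 ± 0.25 (adjusted p = 0.0219, edgeR), although its mean of 20.7 CPM was below the mean of 21.5 CPM over the other classes, and the call was lost when cells were clustered on variable genes (adjusted p = 0.103, edgeR). Nkd2, which encodes a feedback inhibitor, was at 45.0 and 52.8 CPM in these cells beside 1 UMI of Axin2 in each library, and Fzd4 was at 36.0 and 48.4 CPM.

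In fibroblast-like cells, 1 of 7 members passed against 25.2% of all genes. That member was Tcf7l2, at 27.7 and 37.7 CPM. It was 1.42 ± 0.29 above the mean log2 level of all other classes (adjusted p = 0.000223, edgeR). In CPM the means were 32.7 against 20.4. Stem-like and pituicyte-like cells had higher means of Tcf7l2, at 61.6 and 34.7 CPM. In the wider list 17 of 53 genes were higher and 2 lower there, against the same 25.2% of all genes in either direction. The filter also admits genes that are high in the fibroblast-like class alone, so these counts are not read as support. The ligand genes Wnt5a and Wnt5b, the latter at 17.0 and 31.4 CPM, the receptor gene Fzd2 (58.1 against 4.77 CPM) and Wls (80.4 against 41.3 CPM) were among those higher. In macrophage-like cells 3 of 7 members passed, against 22.0% of all genes: Tcf7l2 was higher, with 41.3 and 18.7 CPM, and Lgr4 and Ctnnb1 were lower. Each of these 3 calls was lost under at least 1 other setting: with totals taken without hormone genes (Tcf7l2, adjusted p = 0.135), with the DESeq2 test (Lgr4, adjusted p = 0.121) and with DESeq2 size factors (Ctnnb1, adjusted p = 0.108).

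**Figure D4:**
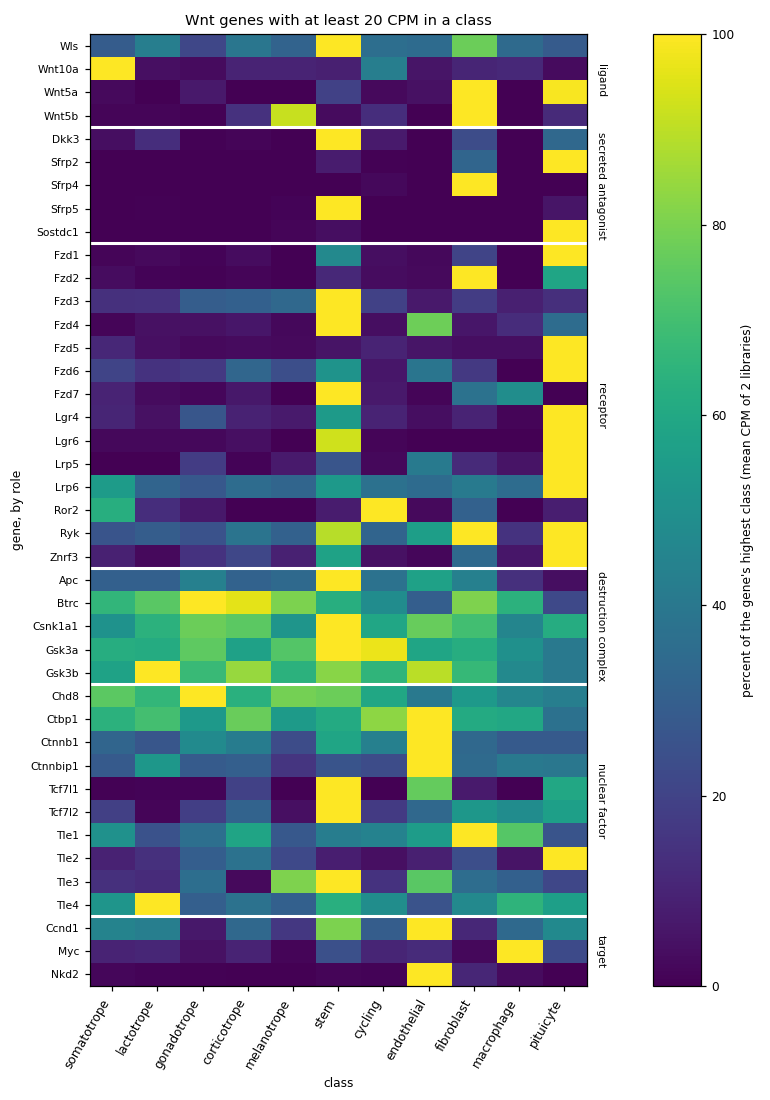
Level of the 41 Wnt genes with at least 20 CPM in a class (rows, by role) in the 11 classes (columns), as a percent of the highest class of that gene, so that colours compare classes within a row and not genes. Wnt10a peaks in somatotrope-like cells, Sfrp4 and Fzd2 in fibroblast-like cells, Nkd2 in endothelial-like cells, and Sfrp5, Dkk3 and Wls in stem-like cells.

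The stem-like class was also set against 3 of the non-hormone classes one by one. Against pituicyte-like cells, 2 of 7 members were higher and 2 lower, against 18.5% of all genes in either direction, with a median of 0.27 over all genes. Sfrp5, which passed the filter only through the stem-like class, was at 82.7 against 4.61 CPM, and Ctnnb1 was 1.06 ± 0.25 higher (adjusted p = 0.000114, edgeR). Fzd5 had a log2 difference of -4.32 ± 0.34 (adjusted p = 1.05e-20, edgeR) and Lgr4 of -0.87 ± 0.26 (adjusted p = 0.0145, edgeR). Tcf7l1 and Tcf7l2 did not pass the test, with log2 differences of 0.92 ± 0.65 and 0.83 ± 0.39. In pituicyte-like cells these genes rested on 5 and 2 UMIs (Tcf7l1) and 6 and 10 UMIs (Tcf7l2).

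Against endothelial-like cells, 3 of 7 members were higher in stem-like cells and 1 lower, against 45.6% of all genes. Sfrp5 was at least 59.4-fold higher, with the endothelial-like class set to 3 UMIs over both libraries. It passed the filter only through the stem-like class, so its call follows from the filter and the count is not read as support. Lgr4 was 3.82 ± 0.55 higher (adjusted p = 1.23e-17, edgeR) and Tcf7l2 1.56 ± 0.25 higher (adjusted p = 2.94e-09, edgeR), while Ctnnb1 had a log2 difference of -0.77 ± 0.11 (adjusted p = 9.20e-10, edgeR). Tcf7l1 did not pass the test (0.41 ± 0.32, adjusted p = 0.313, edgeR).

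Against fibroblast-like cells, 5 of 7 members were higher in stem-like cells, against 28.5% of all genes in either direction. Sfrp5 was at least 26.1-fold higher on the same floor. Its call again follows from the filter, so this count is not read as support either. Tcf7l1 was 3.79 ± 1.17 higher (adjusted p = 1.30e-05, edgeR), Lgr4 2.47 ± 0.52 higher (adjusted p = 1.01e-07, edgeR), Tcf7l2 0.91 ± 0.29 higher (adjusted p = 0.00579, edgeR) and Ctnnb1 0.81 ± 0.17 higher (adjusted p = 2.94e-05, edgeR). Over these 3 comparisons, Tcf7l2 did not pass against pituicyte-like cells, Tcf7l1 did not pass against pituicyte-like and endothelial-like cells, and Lgr4 and Ctnnb1 were lower in 1 comparison each.

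The genes whose profile over the 11 class means was most like that of a member were listed among 8657 genes, as a description of 11 points that share the same libraries. For Wnt10a they were Ceacam10 (Pearson r of 0.95) and Tcerg1l (0.94), both highest in somatotrope-like and then cycling cells. For Sfrp5 they were P2rx2 (0.99) and Ccdc190 (0.97), both highest in stem-like cells. Fzd5 was most like Nkx2-4 and Mctp1 (both 0.92), and Lgr4 most like Pogz (0.92) and Cdh2 (0.91), all highest in pituicyte-like cells. Tcf7l1 was most like Sptan1 (0.94) and Tjp1 (0.93), and Ctnnb1 most like Mapk12 (0.93) and Tmem2 (0.91), all highest in endothelial-like and then stem-like cells. Tcf7l2 was most like Pla2g16 (0.94) and Tfeb (0.89). With rank correlation, only Tcerg1l and Pla2g16 stayed among the 2 nearest genes of their member.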

How the data were processed

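A pool of 3 glands made each of the 2 libraries, read by 10x 3′ sequencing. The values as deposited are unnormalized UMI counts per gene and cell. The submitters' processing notes name Cell Ranger, STAR and mm10, and no version is given in the sources used here. The number ending each barcode was taken as that of the pool. Gene positions are from GENCODE release M21.

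Barcodes with at least 500 UMIs, 250 genes and at most 20% mitochondrial UMIs were kept (6505 and 7060). Scrublet's own threshold called 2 and 6 cells, so the 7.6% with the highest scores were removed (494 and 537). Cells were clustered with scanpy 1.11.5 (12 components, 15 neighbours, Leiden at resolution 1). Counts were summed per class and library and fitted with edgeR 4.0.16 (quasi-likelihood, robust, TMM, filterByExpr; library as a replicate block, since the classes of 1 library come from the same animals): 12542 genes, 22 columns, 10 residual degrees of freedom, with 83 marker genes left out of the tests. The script was tested on simulated counts. Shares have exact binomial 95% intervals.

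The members and lists were chosen with earlier results of these data known. Named genes are all members and, of the wider list, genes past the test with at least 20 CPM, up to 6 per role by size of the log2 difference. Wnt4 and Rspo3 in corticotrope-like, Sfrp2 in fibroblast-like cells and Tle2 in stem-like cells fall outside this rule and were chosen after their values were seen. Likeness is Pearson's r of log2(CPM + 1) class means, among tested genes that are not markers and reach 20 CPM in a class. Alternatives were DESeq2 1.42.0 (size factors, test), no filter, totals without 7 hormone genes, no block, other clusterings, doublets kept, Gh-rich cells removed and each library left out.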

Additional observations from a re-analysis of the deposited data

How the results depend on the processing

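Over 10 settings with a test, the 50 calls on members gave 491 results. Of these, 473 kept their direction and their call, 17 kept their direction but lost the call and 1 reversed: Wnt10a in cycling against hormone classes, at -0.50 with Gh-rich cells removed. None of the calls for stem-like cells against the hormone classes was lost. In that comparison the 2 lower genes of the wider list became 1 with DESeq2 size factors, the DESeq2 test, no filter, totals without hormone genes, doublets kept or Gh-rich cells removed. With Gh-rich cells removed, 1 member, Wnt10a, was lower instead of 0. Pituicyte-like cells then fell under the minimum of 20 cells and have no value. The fit without the replicate block changed no call on a member. Leaving out either library reversed 0 of the 50 differences, which then had no test. Without library 1, 28 of them moved by more than their SE or had no SE, and without library 2, 24 did. The log2 difference of Lgr4 in endothelial-like cells moved from -1.65 to -0.70 without library 1, that of Tcf7l2 in corticotrope-like cells to 2.64 without library 1 and 1.86 without library 2, and that of Tcf7l2 in lactotrope-like cells to -2.83 and -3.77. With totals taken without hormone genes, the median of all genes was at -0.65 in macrophage-like cells and 0.13 in stem-like cells against the hormone classes. Clustering on variable genes ended 6 calls on members. It put 240 and 322 cells in the melanotrope-like class, from 109 and 141, and 115 and 162 in the corticotrope-like class, from 221 and 286. Tcf7l2 was then called higher in melanotrope-like cells, at 0.91 (adjusted p = 0.00659, edgeR), and lower there with doublets kept, at -1.72 (adjusted p = 0.0382, edgeR), while the value reported is -1.50 and not called (adjusted p = 0.0843), so its direction in this class is not settled. Clustering on variable genes also called Tcf7l1 higher in melanotrope-like cells (adjusted p = 0.00114, edgeR) and lower in lactotrope-like cells (adjusted p = 0.0259, edgeR), and Ctnnb1 lower in somatotrope-like cells, at -0.18 (adjusted p = 0.0416, edgeR). Doublets kept also called Sfrp5 higher in cycling cells (adjusted p = 0.0062, edgeR). The causes were not tested. Pituicyte-like, macrophage-like and fibroblast-like values rest on few UMIs, and a level below 17.2 CPM in library 1 of the pituicyte-like class is under 3 UMIs.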
